A study of Homo sapiens with 108 samples.

Results

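The GADD45 family, named for growth arrest and DNA damage inducibility, was followed in melanoma cells after carbon-ion and X-ray irradiation. Its members were taken as every array probe whose single annotated gene symbol was GADD45A, GADD45B or GADD45G. This gave 4 of 54359 probes, for 3 of the 18278 genes with a probe of 1 symbol: 1 for GADD45A (probe 52034), a pair for GADD45B (probes 109049 and 477093) and 1 for GADD45G (probe 477100). A filter on low and missing values kept 32060 probes for testing, 3 of the 4 member probes among them, while the GADD45G probe was not kept.

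The study measured 6 established human melanoma lines (MeWo, HMV-II, HMV-I, Colo679, C32TG and 92-1) on single-colour whole-genome CodeLink arrays. In each line the groups were 2 Gy of carbon ions at 1 h, 2 Gy of carbon ions at 3 h, 2 Gy of X-rays at 1 h, 2 Gy of X-rays at 3 h, and 1 unirradiated (0 Gy) group for each beam, with 3 arrays in each of the 36 groups. The 1 h and 3 h groups of a beam share the same unirradiated arrays, and the beams do not. Whether replicate arrays were separate cultures is not stated in the labels, and a within-line p-value therefore measures array-to-array spread alone, which may be technical. Across lines, each line gave 1 value.

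GADD45 proteins are small, acidic nuclear proteins with no enzymatic activity of their own, which act by binding other proteins. They bind and activate the kinase MAP3K4 upstream of the stress kinases p38 and JNK, bind PCNA and the inhibitor CDKN1A, interfere with the mitotic kinase complex of CDK1 and cyclin B1, and have been linked to active DNA demethylation. GADD45A is a classical p53 target induced by ionising radiation, GADD45B is an early-response gene induced by NF-kB and TGF-beta signalling, and GADD45G is often silenced in tumours.

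The RefSeq promoter windows of the genes that had an entry are shown because they hold the regulatory sequence nearest the start of each gene, and share several motifs. Each window runs from 250 bases before to 50 after the annotated start on the plus strand of GRCh38.p14, at chr19:2475877-2476176 for GADD45B and at chr9:89604762-89605061 for GADD45G. Entries matched 2 of the 3 genes by symbol, and GADD45A is named only. Capitals mark every match, on either strand, to 6 motifs: the TATA box TATAA, the CCAAT box CCAAT, the AP-1 site TGANTCA, the CRE TGACGTCA, the E-box CACGTG and the degenerate NF-kB consensus.
GADD45B: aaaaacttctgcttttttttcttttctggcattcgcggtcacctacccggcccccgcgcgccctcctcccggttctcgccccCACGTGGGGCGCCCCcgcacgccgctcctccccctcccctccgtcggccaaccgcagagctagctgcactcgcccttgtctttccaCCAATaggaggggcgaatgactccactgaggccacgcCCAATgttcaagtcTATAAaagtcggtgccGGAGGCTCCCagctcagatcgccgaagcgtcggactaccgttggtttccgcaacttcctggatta
GADD45G: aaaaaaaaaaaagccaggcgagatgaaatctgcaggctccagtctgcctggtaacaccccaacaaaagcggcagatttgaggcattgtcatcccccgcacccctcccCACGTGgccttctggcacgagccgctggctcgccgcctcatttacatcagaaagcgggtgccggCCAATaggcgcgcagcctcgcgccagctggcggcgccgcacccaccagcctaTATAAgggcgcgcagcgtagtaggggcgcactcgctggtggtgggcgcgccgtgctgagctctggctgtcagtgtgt
Both windows held 1 TATAA, at -31 in GADD45B and -27 in GADD45G, a motif present in 20.4% of the 35116 promoter windows of the same length. CCAAT, present in 34.6% of them, stood at -82 and -45 in GADD45B and at -79 in GADD45G, and CACGTG, present in 7.26%, stood at -168 in GADD45B and -143 in GADD45G. The NF-kB consensus GGGRNNYYCC (R for A or G, Y for C or T, N for any base), present in 11.3%, matched at -163, where it overlaps CACGTG, and at -15 in GADD45B and nowhere in the GADD45G window. An earlier, different form of this motif had no match in either window, so nothing is read from these matches. No match to TGANTCA (7.71% of windows) or TGACGTCA (1.85%) lay in either window, which says only that these letters are not there. GC made up 61.7% of the GADD45B window and 62.7% of the GADD45G window, with 27 and 25 CpG, against a median of 58.7% and 14 CpG over all windows.

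Values are spot intensities as deposited, and changes are differences of log2 intensity after quantile normalisation of the kept probes, irradiated minus unirradiated, always within 1 line and 1 beam. Folds, tests and counts of groups that overlap or do not are likewise on the normalised values unless said otherwise. Array medians ran from 1.02 to 1.32, missing values from 1000 to 8034 per array, and replicate arrays correlated with r = 0.987 to 0.998. The number of arrays limits the precision. Of the 8 melanocyte markers 7 had a probe, and their summed intensity in unirradiated cells ran from 21.2 in HMV-I to 1972 in MeWo. In HMV-I the pigment-cell antigens MLANA (0.446) and PMEL (2.39) and the pigment enzyme TYR (0.656) were dim, so the labelled type of this line is not borne out by them, although the melanocyte regulator MITF read 15.9. Summed markers of fibroblasts ran from 6.10 to 65.0, of keratinocytes from 1.74 to 2.97 and of leukocytes from 1.26 to 1.53. These are bulk samples, in which fewer cells of a type and less RNA per cell cannot be told apart. Under median centring, the alternative scaling, the share of called probes that were higher was 66.9% at 1 h and 76.5% at 3 h after carbon ions, and 47.5% and 70.4% after X-rays, against 43.6%, 48.0%, 31.9% and 41.4% under quantile normalisation. The median of all probes moved by no more than 0.06 between median centring and quantile normalisation in the comparisons with unirradiated cells.

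The probes differed in how much signal they gave. GADD45A had a median intensity of 71.9 over all arrays, with 0 missing values, and GADD45B probe 109049 a median of 21.0 with 1 missing value. GADD45B probe 477093, annotated from an expressed sequence tag, had a median of only 0.828, with 1 missing value, and fell below the level filter's threshold on 35 arrays. GADD45G had a median of 0.446, was missing on 16 arrays (14.8%), and all of its 92 measured values lay below that threshold. No probe's level is set against another's here, since probes differ in affinity.

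**Figure D1:**
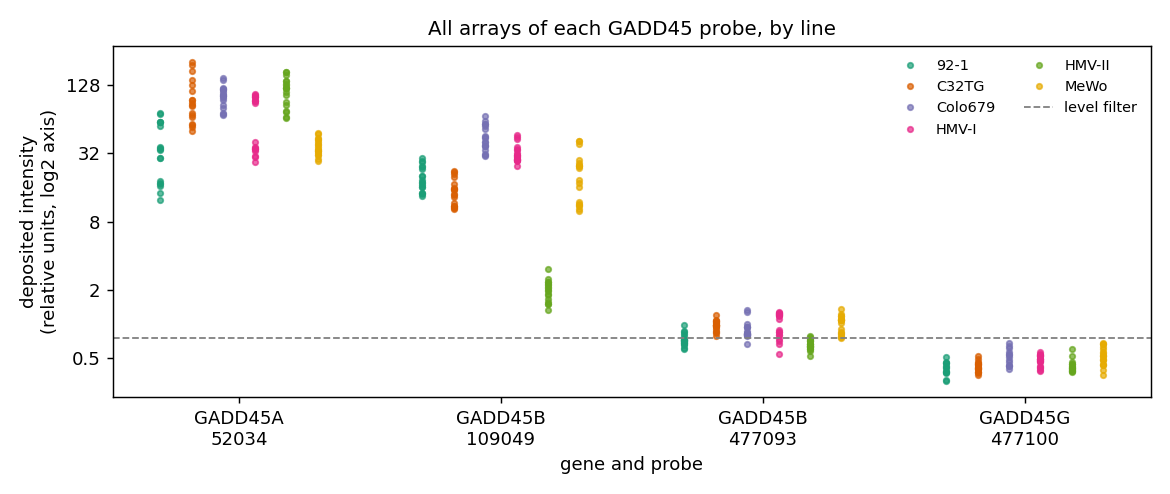
Deposited intensity (relative units, log2 axis) of each GADD45 probe on every array with a value, 1 point per array, coloured by line, with the threshold of the level filter as a dashed line. All 92 GADD45G values lie below the line and GADD45B probe 477093 straddles it, while GADD45A (median 71.9) and GADD45B probe 109049 (median 21.0) lie above it.

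In unirradiated cells the GADD45A level differed between lines. Mean intensity over the 6 unirradiated arrays of a line was 79.2 ± 9.65 in Colo679, 76.5 ± 10.02 in HMV-II, 62.4 ± 36.9 in HMV-I, 60.1 ± 8.36 in C32TG, 33.1 ± 4.32 in MeWo and 16.1 ± 2.25 in 92-1 (SD, n = 6 arrays). On both scales the ranges of neighbours in this order overlapped among the upper 4 lines, while MeWo lay below C32TG and 92-1 below MeWo with no overlap. The level of Colo679 was 5.15-fold that of 92-1 after normalisation (4.92-fold in mean deposited intensity), and limma's F between lines, on 1 mean per line and unirradiated set, gave 7.53 (adjusted p = 0.00785), in a test that called 57.4% of all kept probes.

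GADD45B probe 109049 spanned a wider range. Its mean intensity was 40.8 ± 4.57 in Colo679, 29.3 ± 1.33 in HMV-I, 18.1 ± 7.32 in MeWo, 15.7 ± 2.11 in 92-1, 12.8 ± 2.35 in C32TG and 1.61 ± 0.233 in HMV-II (SD, n = 6 arrays). Neighbouring ranges did not overlap between HMV-I and MeWo or between C32TG and HMV-II on either scale, while Colo679 lay wholly above HMV-I as deposited but overlapped it after normalisation. On the normalised scale the level was 7.04-fold higher in C32TG and 25.9-fold higher in Colo679 than in HMV-II (7.98-fold and 25.4-fold in mean deposited intensity). The F between lines was 80.4 (adjusted p = 1.07e-06). For GADD45B probe 477093 the F was 2.49 (adjusted p = 0.137).

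The unirradiated cells of the beams were not alike in every line. In HMV-I, GADD45A read 26.6, 29.5 and 30.4 in the carbon-ion set, against 101, 91.8 and 94.5 in the X-ray set. These arrays do not overlap, and the X-ray set was 3.33-fold higher in mean deposited intensity and 3.98-fold higher after normalisation. In HMV-I, 28.8% of all probes had every carbon-ion control array below every X-ray control array, but only 0.0807% differed between the sets by as much as GADD45A. GADD45B probe 109049 had its widest such gap in MeWo, with 11.4, 11.9 and 11.3 in the carbon-ion set, against 24.5, 26.3 and 23.5 in the X-ray set (2.15-fold higher as deposited, 1.72-fold after normalisation), in a line where 35.1% of all probes lay lower and 40.1% higher on every carbon-ion control array. Across the 6 lines, the unirradiated sets (carbon-ion minus X-ray) differed by -0.20 ± 0.91 for GADD45A and 0.03 ± 0.45 for GADD45B probe 109049 (SD, n = 6; limma adjusted p = 0.773 and 0.946), and the comparison called 0% of probes (3116 at an unadjusted p under 0.05). For probe 477093 the difference was -0.16 ± 0.33 (limma adjusted p = 0.605). Smaller gaps occurred in other lines. In C32TG the carbon-ion set was wholly higher, by 0.37 for GADD45A and 0.46 for GADD45B probe 109049 (log2). In that line 7556 of 31438 probes lay wholly higher in the carbon-ion set. Every irradiated value below is set against the unirradiated set of its own beam.

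**Figure D2:**
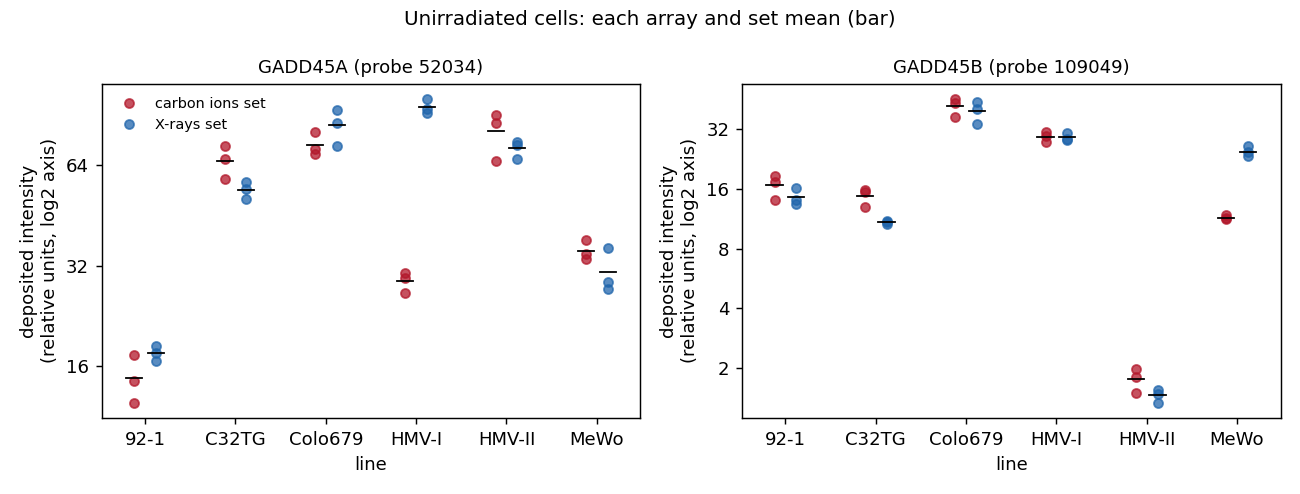
Deposited intensity (relative units, log2 axis) of GADD45A (left) and GADD45B probe 109049 (right) on the 6 unirradiated arrays of each line, points for arrays and bars for the mean of each set, with the carbon-ion set left of the X-ray set. GADD45A in HMV-I splits into a lower carbon-ion set and a higher X-ray set (3.33-fold in mean intensity), and GADD45B is lowest in HMV-II.

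GADD45A was higher after irradiation in most lines after either beam, and its mean change was larger at 3 h than at 1 h in 4 of 6 lines. The 92-1 line, which started lowest, had the largest changes of the 6 lines at 3 h after both beams. In it GADD45A reached 29.1, 34.2 and 34.6 at 1 h and 55.6, 60.0 and 60.6 at 3 h after carbon ions, against 14.4, 17.3 and 12.4 in unirradiated cells. After X-rays it reached 36.3, 36.0 and 29.0 at 1 h and 72.2, 60.9 and 71.0 at 3 h, against 16.6, 17.5 and 18.4 in unirradiated cells. All irradiated arrays of 92-1 lay above all its controls, and the 3 h arrays above the 1 h arrays. GADD45A thus rose 4.07-fold by 3 h following carbon ions and 3.55-fold following X-rays (limma within the line, adjusted p = 8.31e-10 and 4.09e-09).

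C32TG behaved likewise from a higher starting level. GADD45A read 88.1, 93.6 and 93.9 at 1 h and 191, 205 and 170.0 at 3 h after carbon ions, against 58.1, 67.1 and 73.0 in unirradiated cells. After X-rays it read 83.9, 85.0 and 69.9 at 1 h and 129, 114 and 141 at 3 h, against 50.6, 54.6 and 56.9 in unirradiated cells. Again no irradiated array overlapped its controls, and the 3 h values stood 2.55-fold above controls after carbon ions and 2.40-fold after X-rays (limma adjusted p = 7.96e-12 and 3.45e-11).

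In Colo679 and HMV-II the changes were smaller. Colo679 read 99.03, 103 and 107.7 at 1 h and 143, 115 and 148 at 3 h after carbon ions, against 69.4, 71.7 and 80.9 in its controls, and 103, 104 and 118 at 1 h and 117, 112 and 120.4 at 3 h after X-rays, against 73.0, 94.2 and 86.1 in its X-ray controls. HMV-II read 112, 121 and 130.5 at 1 h and 168, 166 and 140.0 at 3 h after carbon ions, against 66.2, 86.0 and 90.8 in its controls, and 119.8, 122 and 139 at 1 h and 128, 158 and 105 at 3 h after X-rays, against 66.9, 73.9 and 75.5 in its X-ray controls. By 3 h GADD45A had risen 1.77-fold (carbon ions) and 1.48-fold (X-rays) in Colo679, and 1.86-fold and 1.75-fold in HMV-II, each past limma's threshold within the line (adjusted p = 6.22e-06, 3.51e-04, 1.13e-05 and 1.02e-04). At 1 h after X-rays Colo679 stood at 0.30 on the log2 scale and did not pass (adjusted p = 0.102).

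MeWo and HMV-I differed from the others at 3 h. MeWo read 47.8, 48.5 and 43.9 at 1 h but 34.3, 38.4 and 33.8 at 3 h after carbon ions, against 33.5, 34.7 and 38.2 in unirradiated cells. After X-rays it read 40.0, 42.6 and 41.8 at 1 h and 32.4, 30.8 and 30.7 at 3 h, against 27.2, 28.6 and 36.1 in unirradiated cells. In MeWo GADD45A was thus above its controls on every array at 1 h (adjusted p = 0.00510 after carbon ions and 0.0282 after X-rays), while the 3 h arrays overlapped the controls (0.601 and 0.470). HMV-I read 35.0, 40.2 and 36.5 at 1 h and 34.8, 33.4 and 35.9 at 3 h after carbon ions, against 26.6, 29.5 and 30.4 in its dim control set, and the arrays lay above the controls at both times, but only the 1 h change passed (adjusted p = 0.0210 at 1 h and 0.138 at 3 h). After X-rays HMV-I read 100.4, 92.9 and 107 at 1 h and 105, 103 and 89.8 at 3 h, against 101, 91.8 and 94.5 in its brighter control set, with overlap at both times (adjusted p = 0.999 and 0.768). GADD45A's spot stayed at least 1.82 log2 units below the brightest spot of every array.

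**Figure D3:**
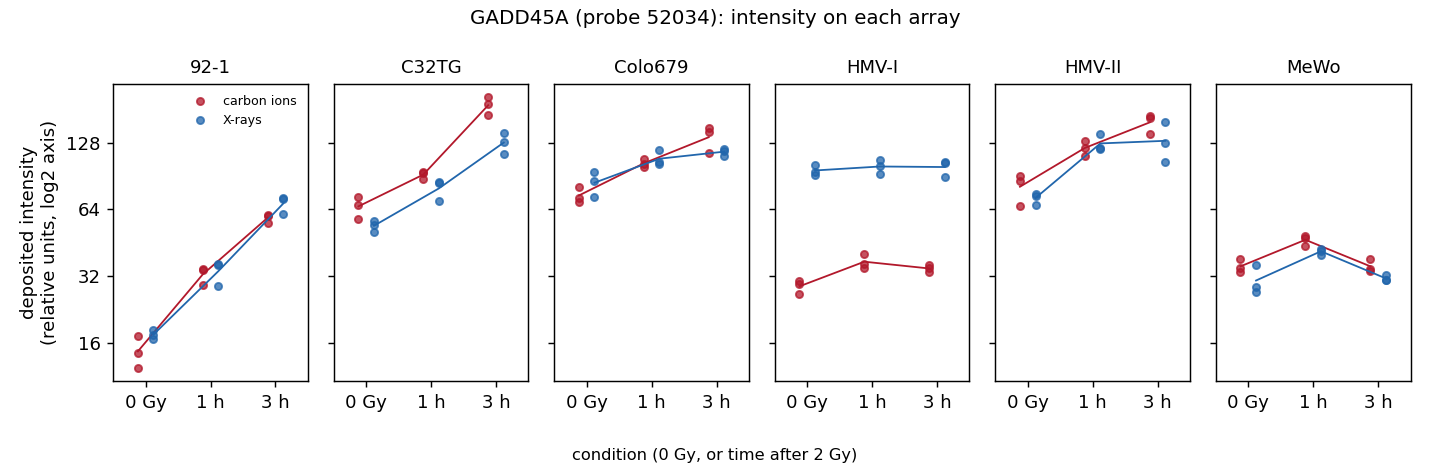
GADD45A intensity (relative units, log2 axis) on each array at 0 Gy, 1 h and 3 h in the 6 lines, with lines through the group means of 3 arrays, carbon ions and X-rays in separate colours. The 3 h arrays lie 4.07-fold (carbon ions) and 3.55-fold (X-rays) above controls in 92-1 but overlap the controls in MeWo.

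Counted over the 24 comparisons of line, beam and time, GADD45A was called higher in 18 and lower in 0 by limma within lines. The same rule called 3.46% of all tests of kept probes higher and 3.91% lower. The calls fell in 6 of 6 lines at 1 h after carbon ions and in 4 of 6 lines in each of the other conditions, where the background of higher calls was 2.01% at 1 h and 6.71% at 3 h after carbon ions, and 0.65% and 4.49% after X-rays. In 20 of the 24 comparisons every irradiated array lay above every control, as did 13.7% of all tests of probes, and in the other 4 the arrays overlapped. Leaving out 1 replicate number in turn left 12 to 15 of the 18 calls, with 12 left without replicate 1.

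Across lines, with the line as the unit, GADD45A was higher in all 4 conditions. After carbon ions the mean change was 0.56 ± 0.32 at 1 h (1.47-fold; limma adjusted p = 0.00371) and 0.89 ± 0.74 at 3 h (1.85-fold; 0.0202), higher in 6 of 6 lines at both times (log2, SD, n = 6). The same fits called 4.67% and 6.43% of kept probes higher, and 6.03% and 6.98% lower. After X-rays it was 0.47 ± 0.33 at 1 h (1.39-fold; limma adjusted p = 0.0351; 5 of 6 lines) and 0.77 ± 0.69 at 3 h (1.71-fold; 0.0241; 6 of 6 lines), in fits that called 0.368% and 2.96% of probes higher and 0.786% and 4.19% lower. Some of these calls rest on single lines: the call at 3 h after carbon ions was lost without HMV-II (adjusted p = 0.0565), and that at 3 h after X-rays without 92-1 (0.0516), C32TG (0.0740) or HMV-II (0.0752). The call at 1 h after X-rays was lost without any 1 line other than HMV-I (adjusted p up to 0.103) and without replicate 2 (0.0624) or replicate 3 (0.0702), with mean changes of 0.38 to 0.57.

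GADD45B probe 109049, the well-measured probe of the early-response member, rose at 1 h and was back near the controls at 3 h in most lines. In MeWo it read 17.3, 18.8 and 16.2 at 1 h and 10.2, 10.9 and 9.86 at 3 h after carbon ions, against 11.4, 11.9 and 11.3 in unirradiated cells. After X-rays it read 38.3, 40.7 and 40.9 at 1 h and 28.2, 24.7 and 25.3 at 3 h, against 24.5, 26.3 and 23.5 in unirradiated cells. The 1 h arrays of MeWo stood clear of all controls and of all 3 h arrays of the same beam (limma adjusted p at 1 h = 1.16e-06 after carbon ions and 6.72e-06 after X-rays), although the control sets of MeWo differed between the beams.

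In C32TG the same probe read 21.9, 22.4 and 21.0 at 1 h and 15.5, 13.9 and 13.8 at 3 h after carbon ions, against 13.1, 15.5 and 15.8 in unirradiated cells, and 17.2, 19.7 and 15.2 at 1 h and 10.4, 10.4 and 11.7 at 3 h after X-rays, against 10.7, 11.03 and 10.9 in its X-ray controls. In 92-1 it read 24.5, 28.9 and 24.03 at 1 h and 16.8, 16.3 and 14.3 at 3 h after carbon ions, against 17.4, 18.7 and 14.1 in unirradiated cells, and 27.5, 26.8 and 23.1 at 1 h and 20.1, 17.96 and 20.1 at 3 h after X-rays, against 14.2, 13.5 and 16.2 in its X-ray controls. Both lines had every 1 h array above the controls, and all 4 of these changes passed (limma adjusted p = 5.97e-04 and 1.85e-05 in C32TG, 0.00331 and 2.86e-04 in 92-1, after carbon ions and X-rays). None of their 3 h changes passed, and in 92-1 the 3 h change after X-rays was 0.29 (adjusted p = 0.0969).

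Colo679 held the brightest values of this probe. It read 55.7, 52.5 and 58.1 at 1 h and 30.6, 30.9 and 37.1 at 3 h after carbon ions, against 43.4, 36.9 and 45.7 in unirradiated cells. After X-rays it read 68.8, 57.9 and 61.2 at 1 h and 40.0, 31.5 and 37.7 at 3 h, against 33.9, 40.5 and 44.2 in unirradiated cells. GADD45B was higher at 1 h after both beams (limma adjusted p = 0.0488 and 0.00135), and at 3 h after carbon ions it fell by 0.34 on the log2 scale (0.0185; 6.68% of all tests of probes at this time and beam were called lower), a call that median centring and every omission of a replicate number removed.

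HMV-I was the line in which the changes in the carbon-ion and X-ray sets differed most for this probe. After carbon ions GADD45B read 27.8, 31.9 and 30.2 at 1 h and 34.5, 35.2 and 36.1 at 3 h, against 27.6, 29.5 and 31.0 in unirradiated cells. After X-rays it read 42.7, 46.8 and 44.7 at 1 h and 28.0, 24.6 and 28.0 at 3 h, against 28.4, 30.6 and 28.6 in unirradiated cells. At 1 h the X-ray arrays lay well above their controls (0.55; adjusted p = 0.00126), while the carbon-ion arrays overlapped theirs (-0.04; 0.859). At 3 h every carbon-ion array lay above and every X-ray array below its controls, with changes of 0.17 and -0.23 that did not pass (adjusted p = 0.174 and 0.0613). The difference between the beams within this line was not tested. For this probe the unirradiated sets of HMV-I overlapped as deposited, with means of 29.4 (carbon-ion) and 29.2 (X-ray). After normalisation they differed by -0.19 (log2, carbon-ion minus X-ray). For GADD45A the unirradiated sets of this line differed 3.98-fold after normalisation. Beam and set therefore cannot be told apart here.

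HMV-II, the line with the lowest level, read 2.20 and 3.02 at 1 h on the 2 arrays with a value and 2.34, 2.49 and 1.97 at 3 h after carbon ions, against 1.502, 1.80 and 1.97 in unirradiated cells. After X-rays it read 2.26, 1.65 and 2.11 at 1 h and 1.85, 2.06 and 2.35 at 3 h, against 1.55, 1.33 and 1.49 in unirradiated cells. After normalisation its irradiated arrays lay above the controls in all 4 comparisons. The missing array kept the probe out of the within-line fit for HMV-II, and with at least 2 values per group only the change at 3 h after X-rays passed (0.60; limma adjusted p = 0.0373).

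**Figure D4:**
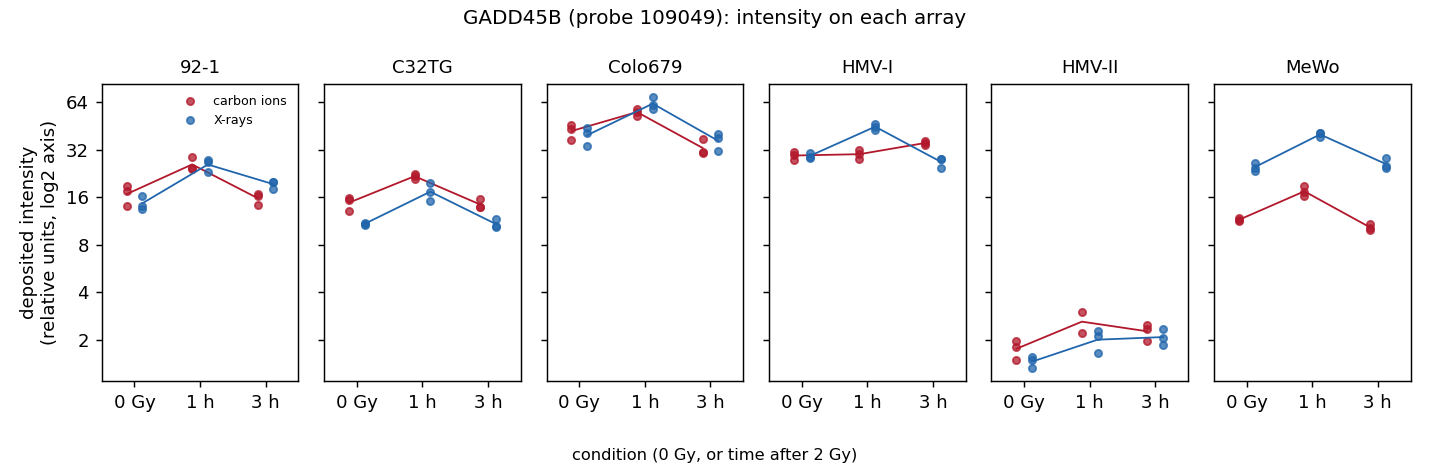
GADD45B probe 109049 intensity (relative units, log2 axis) on each array at 0 Gy, 1 h and 3 h in the 6 lines, with lines through the means of the arrays with a value (3 per group, 2 in HMV-II at 1 h after carbon ions). The peak at 1 h is seen after X-rays in 5 lines, all but HMV-II, and HMV-I lacks it after carbon ions.

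Within lines, GADD45B probe 109049 was called higher in 9 of the 20 comparisons tested, 4 of 5 lines at 1 h after carbon ions and 5 of 5 at 1 h after X-rays, and lower in 1. The background for these calls is that given for GADD45A. Without replicate 2 only 5 of these comparisons were called higher. Over all 24 comparisons the irradiated arrays lay wholly above the controls in 16 and wholly below in 2, against 13.7% and 12.9% of all tests of probes (14 and 2 on the deposited values).

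Across lines, the 1 h rise of this probe was 0.42 ± 0.25 after carbon ions (1.34-fold; limma adjusted p = 0.00516; 5 of 6 lines) and 0.63 ± 0.11 after X-rays (1.55-fold; 95% interval 0.53 to 0.73; 1.52e-04; 6 of 6 lines). Both calls held with each line and each replicate number left out in turn. At 3 h the mean change was -0.00095 ± 0.27 after carbon ions (adjusted p = 0.995), with a mean of 0.08 under median centring, and 0.13 ± 0.29 after X-rays (0.418; 4 of 6 lines). The 6 lines lay closest together at 1 h after X-rays, from 0.50 in HMV-II to 0.81 in 92-1.

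GADD45B probe 477093 gave no such course. Its changes were -0.14 ± 0.18 at 1 h and -0.11 ± 0.22 at 3 h after carbon ions, and -0.08 ± 0.12 and -0.10 ± 0.15 after X-rays (log2, SD, n = 6), none past limma's threshold (adjusted p = 0.193, 0.359, 0.561 and 0.351). Within lines it was called in 0 of 20 tested comparisons, where 3.46% of all tests of probes were called higher and 3.91% lower. In MeWo it was not tested because of its missing control array. Its arrays overlapped the controls in 20 of 24, where 13.7% of all tests of probes lay wholly above and 12.9% wholly below. These counts are near that background, and nothing is read from them. The highest intensity it reached on any array was 1.34. The GADD45B probes therefore disagree, and the results given above for GADD45B are those of probe 109049. Over the 24 changes the correlation between them was 0.08, as a description.

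No change of GADD45G passed. With no filter on level or missing values, a setting added after seeing the data that tested 47085 probes, its changes were -0.11 ± 0.26 at 1 h and -0.05 ± 0.28 at 3 h after carbon ions, and -0.17 ± 0.15 and 0.02 ± 0.11 after X-rays (log2, SD, n = 6; limma adjusted p = 0.512, 0.798, 0.338 and 0.925). Its intensity stayed between 0.312 and 0.683 on every array with a value, so a change in GADD45G could not be detected here.

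**Figure D5:**
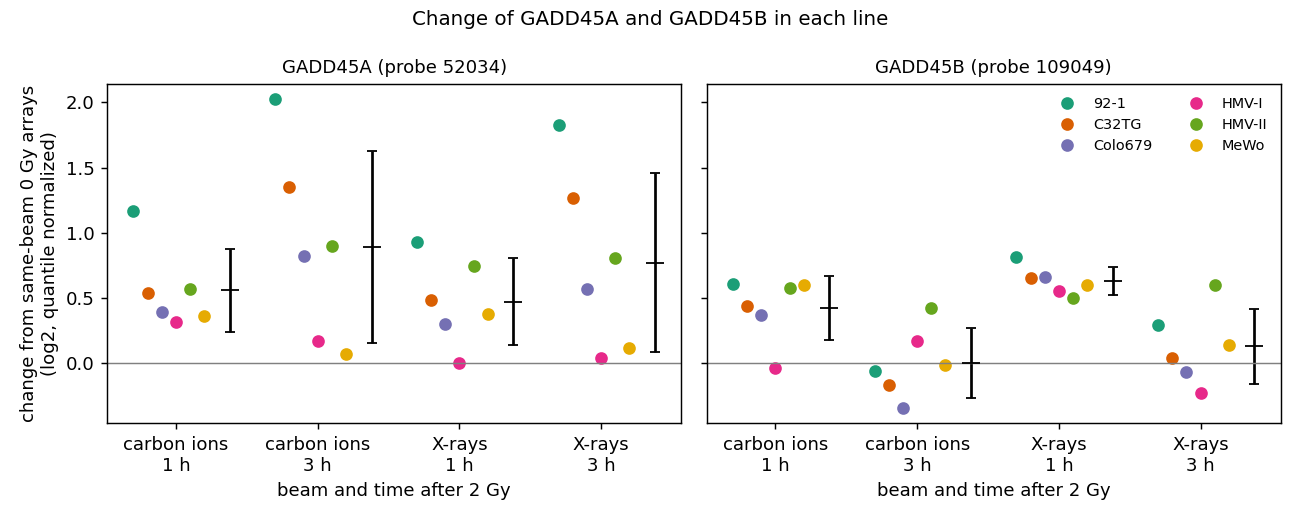
Change from the unirradiated arrays of the same beam (log2, quantile normalised) of GADD45A (left) and GADD45B probe 109049 (right), 1 point per line, with the mean and SD over 6 lines in black. GADD45A spreads widely at 3 h, with an SD of 0.74 after carbon ions and 0.69 after X-rays, and GADD45B is tightest at 1 h after X-rays (0.63 ± 0.11).

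The beams were then compared directly, as the carbon-ion change minus the X-ray change in each line. For GADD45A the difference was 0.09 ± 0.18 at 1 h (95% interval -0.05 to 0.22) and 0.12 ± 0.10 at 3 h (-0.02 to 0.26), the second being higher after carbon ions in 5 of 6 lines (limma adjusted p = 0.796 and 1.00). For GADD45B probe 109049 it was -0.21 ± 0.24 at 1 h (-0.37 to -0.04) and -0.13 ± 0.27 at 3 h, lower after carbon ions in 5 of 6 lines both times (adjusted p = 0.609 and 1.00). For probe 477093 it was -0.06 ± 0.12 at 1 h and -0.0076 ± 0.12 at 3 h. No kept member probe passed, and 0% of kept probes were called at either time (2421 at 1 h and 1430 at 3 h at an unadjusted p under 0.05). At 1 h the carbon-ion and X-ray changes of GADD45A were 1.17 and 0.93 in 92-1, 0.57 and 0.74 in HMV-II, 0.54 and 0.48 in C32TG, 0.39 and 0.30 in Colo679, 0.36 and 0.38 in MeWo, and 0.31 and -0.0011 in HMV-I. The carbon-ion change was thus the higher in 4 of 6 lines, and the X-ray change in HMV-II and MeWo.

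The course over time was compared as the 3 h value minus the 1 h value, which needs no controls. Averaged over both beams, GADD45B probe 109049 was lower at 3 h in 6 of 6 lines, with a difference of -0.46 ± 0.26 (limma adjusted p = 0.00873), where the same fit called 2% of kept probes lower. In HMV-II, its dimmest line, this average was only -0.03. Within each beam it was lower in 5 of 6 lines. The exceptions were HMV-I after carbon ions (0.20) and HMV-II after X-rays (0.09). After X-rays alone the difference was -0.50 ± 0.32 (adjusted p = 0.0356; background 0.296%), and after carbon ions alone -0.43 ± 0.37 (0.0553; background 1.12%). The X-ray call was lost without any 1 line other than HMV-II (adjusted p up to 0.106) and without replicate 1 (0.0773) or replicate 3 (0.0693), and the carbon-ion difference passed without HMV-I (0.0153) or replicate 1 (0.0448), whereas the call over both beams held in each case.

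GADD45A did not follow that course. Its difference between 3 h and 1 h was 0.31 ± 0.46 over both beams (limma adjusted p = 0.184), higher at 3 h in 4 of 6 lines and lower in HMV-I and MeWo. The course of GADD45A minus that of GADD45B probe 109049 was 0.78 ± 0.61 and positive in 6 of 6 lines, from 0.23 in HMV-II to 1.47 in 92-1. An exact two-sided sign-flip test gave the smallest p that 6 lines allow, but after adjustment over the 2 probe pairs it was 0.0625, which does not pass. With 6 lines the adjusted value could pass only if both pairs reached this smallest p, and the other pair holds the dim probe 477093. The adjusted test therefore cannot decide whether the courses of GADD45A and probe 109049 differ. Against GADD45B probe 477093 the difference was 0.31 ± 0.47, positive in 4 of 6 lines (exact p = 0.219). Probe 477093 itself, at 3 h minus 1 h, gave 0.0045 ± 0.13 over both beams (limma adjusted p = 0.968). It gave 0.03 ± 0.19 after carbon ions and -0.02 ± 0.08 after X-rays (limma adjusted p = 0.856 and 0.847).

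The size of the GADD45A change differed between lines beyond the spread between arrays. At 3 h after carbon ions it was 2.03 in 92-1, 1.35 in C32TG, 0.90 in HMV-II, 0.82 in Colo679, 0.17 in HMV-I and 0.07 in MeWo on the log2 scale. At 3 h after X-rays the order of lines was the same for the upper 4, with 1.83, 1.27, 0.80 and 0.56, followed by 0.11 in MeWo and 0.04 in HMV-I. limma's F of line by irradiation over all arrays at 3 h was 79.2 for carbon ions and 69.4 for X-rays (adjusted p = 7.57e-26 and 4.40e-24), rank 4 and rank 5 among 20424 probes, of which 23.7% and 23.1% were called. At 1 h the F was 14.6 and 16.0 (adjusted p = 3.83e-07 and 6.28e-08; rank 19 and 21), with 5.1% and 3.91% of probes called. The unirradiated level was lowest in the line with the largest change, 92-1, but MeWo, next lowest, had among the smallest changes at 3 h.

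For GADD45B probe 109049 the lines could be compared only with at least 2 values per group, a setting added after seeing the data. The F was then 6.37 at 1 h and 7.51 at 3 h after carbon ions (limma adjusted p = 0.00386 and 2.83e-04; 5.31% and 22.7% of probes called). After X-rays it was 1.20 at 1 h and 8.84 at 3 h (adjusted p = 0.638 and 9.11e-05; 3.49% and 20.4% called). At 1 h after X-rays, where the lines lay closest together, no difference between lines passed. In the same setting no F of probe 477093 passed. Its limma adjusted p at 1 h and 3 h was 0.413 and 0.0825 after carbon ions, and 0.773 and 0.404 after X-rays.

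Likeness to each member was measured as Pearson's r of the 24 changes (6 lines, 2 beams, 2 times) over 13660 other named genes. The 1 h and 3 h changes of a beam share their control arrays, so r is given as a description. Closest to GADD45A were the splicing factor SRSF8 (r = 0.90), the stress-induced kinase PLK3 (0.87), the transcription factor ST18 (0.87), the p53-induced regulator of glycolysis TIGAR (0.86) and the lysosome-related organelle gene BLOC1S2 (0.85), where the 99th percentile of all genes was 0.61. PLK3 changed by 0.88 at 3 h after carbon ions and 0.80 after X-rays, and TIGAR by 0.48 and 0.47 (limma adjusted p = 0.0170, 0.00726, 0.0248 and 0.0311). At 3 h ST18 changed by 0.67 and 0.60 (adjusted p = 0.0321 and 0.0528) and BLOC1S2 by 0.36 and 0.34 (0.0503 and 0.0331). SRSF8, the closest, changed by 0.24 and 0.19 and passed in no condition (adjusted p = 0.135 and 0.196 at 3 h). At 1 h only PLK3 (0.32; 0.0133) and ST18 (0.15; 0.0225) passed, both after carbon ions.

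Closest to GADD45B probe 109049 were the TGF-beta-inducible factor KLF11 (r = 0.74), the ephrin ligand EFNA1 (0.72), HYLS1, a centriole gene (0.71), the MAP kinase phosphatase DUSP2 (0.70) and the replication factor subunit RFC4 (0.69), against a 99th percentile of 0.51. DUSP2 changed by 0.38 at 1 h after carbon ions and 0.34 after X-rays (limma adjusted p = 3.02e-04 and 0.0325), and by 0.0037 and 0.05 at 3 h (0.969 and 0.626). EFNA1 changed by 0.29 and 0.27 at 1 h (adjusted p = 0.0126 and 0.0351), and KLF11 by 0.20 and 0.24 (0.00924 and 0.0574). HYLS1 (-0.05 and 0.02) and RFC4 (0.06 and 0.04) did not pass at 1 h (limma adjusted p = 0.395, 0.875, 0.497 and 0.786). At 3 h only HYLS1 of these genes passed, with -0.25 after carbon ions (0.0209). The genes closest to the dim GADD45B probe 477093 were KIT (0.83), SRCAP (0.76), SLC6A7 (0.74), FOXL2 (0.73) and LCMT1-AS2 (0.73), against a 99th percentile of 0.53. GADD45A and GADD45B probe 109049 correlated with r = -0.11 over the same changes.

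The known partners and regulators of the family were examined as lists. The background for their counts is the share of all kept probes called across lines, which in either direction was 10.7% at 1 h and 13.4% at 3 h after carbon ions, and 1.15% and 7.15% after X-rays. For counts at an unadjusted p under 0.05 it was 8450 and 9887 of 32060 kept probes at 1 h and 3 h after carbon ions. After X-rays it was 4412 and 7333. Of 9 genes of the MAP kinase arm 7 were measured, and only MAP3K4, the kinase that GADD45 proteins activate, passed, rising by 0.17 ± 0.08 at 3 h after carbon ions (limma adjusted p = 0.0368), where 6.43% of kept probes were called higher. The list had 0 calls in the other 3 conditions by limma, with 0, 1 and 1 genes at an unadjusted p under 0.05 at 1 h after carbon ions, 1 h after X-rays and 3 h after X-rays. Of 10 DNA demethylation and excision repair partners 8 were measured and 0 passed in any condition by limma, with 0 and 1 at an unadjusted p under 0.05 after carbon ions and 0 and 2 after X-rays at 1 h and 3 h. For lists of 7 and 8 genes, counts of 0 or 1 calls are near the background, and nothing is read from them or from the unadjusted counts. List medians lay between -0.01 and 0.09 for both, against medians of 0.00404 to 0.00573 over all kept probes.

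Of 7 cell cycle and PCNA partners 5 were measured. The cyclin-dependent kinase inhibitor CDKN1A rose at 1 h and 3 h after carbon ions and at 3 h after X-rays, by 0.29, 1.20 and 1.18 (limma adjusted p = 0.00383, 0.00644 and 0.00707). NPM1, a nucleolar protein that binds GADD45A, fell by 0.38 at 1 h and 0.64 at 3 h after carbon ions (adjusted p = 0.0321 and 0.00674), and the mitotic cyclin CCNB1 fell by 0.34 at 3 h (0.0343). At 1 h after X-rays 0 of 5 passed by limma, with 1 at an unadjusted p under 0.05. The list medians were 0.02 and -0.27 at 1 h and 3 h after carbon ions, and -0.04 and -0.15 after X-rays. Over the 24 changes CDKN1A correlated with GADD45A at r = 0.81, which 0.0878% of genes exceeded, and with GADD45B probe 109049 at r = -0.52.

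Of 20 transcription factors known to act on GADD45 genes 15 were measured, and 2 rose in each condition with 0 falling, where 4.67% and 6.43% of kept probes were called higher at 1 h and 3 h after carbon ions and 0.368% and 2.96% after X-rays. The stress-induced factor ATF3 rose in all 4, by 0.66 and 0.92 at 1 h and 3 h after carbon ions and by 0.49 and 0.88 after X-rays (limma adjusted p = 8.39e-04, 0.00532, 0.0330 and 0.00320). The other gene was SMAD4, the shared TGF-beta signal transducer, at 1 h and 3 h after carbon ions (0.15 and 0.26), ZNF350, a repressor that acts with BRCA1, at 1 h after X-rays (0.21) and FOXO3 at 3 h after X-rays (0.23). The NF-kB subunits NFKB1 and RELA did not pass in any condition, with changes between -0.08 and 0.09. List medians were 0.06 and 0.09 after carbon ions and 0.03 and 0.09 after X-rays.

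A chosen list of 4 further genes, set down as growth arrest and DNA damage inducible, held DDIT3, DDIT4, PPP1R15A and PPP1R15B. All 4 were measured. DDIT4, an inhibitor of mTORC1 signalling, rose by 0.45 at 3 h after carbon ions and 0.41 after X-rays, and PPP1R15A, also called GADD34, by 0.39 at 3 h after X-rays (limma adjusted p = 0.0208, 0.0274 and 0.0187). DDIT3, also called GADD153 or CHOP, fell by 0.20 at 1 h after carbon ions (0.0128). At 1 h after X-rays 0 of 4 passed by limma, with 2 at an unadjusted p under 0.05. The list medians were -0.09 and 0.15 at 1 h and 3 h after carbon ions and -0.12 and 0.23 after X-rays.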

How the data were processed

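Per the labels' protocols, total RNA of the melanoma lines was purified (ISOGEN, RNeasy), biotinylated and measured on single-colour CodeLink arrays. The deposited table holds each array's spot intensity on a linear scale, for which scanner software and scaling were not given in the sources used here. Each sample's title gave its group (line, beam, dose and time), and 0 value columns were left unmapped.

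Intensities were transformed to log2. Probes were kept with at most 10% missing values (44606 of 54359), a mean above the 40th percentile (-0.41) and a value in every group, which left 32060, and these were quantile normalised because array medians ranged over 0.38. Genes were named from probes with 1 annotated symbol (23472 probes, 905 with several). The members and lists were chosen with earlier results of these data known.

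Models were fitted in limma 3.58.1 under R 4.3.3, using lmFit and trended eBayes, with 1 value per line across 6 lines, on the 18 arrays within each line, and on all arrays for differences between lines, two-sided, with Benjamini-Hochberg adjustment over all probes tested at 0.05. The scripts were tested on simulated data. An exact sign-flip test over 64 flips compared the courses of GADD45A and GADD45B, adjusted over the 2 probe pairs. Every kept member probe is named in every test, while GADD45G is given only for its signal and its changes from unirradiated cells. Also named are up to 3 passing genes per list and direction, and the genes set beside a member. The 5 genes most correlated with each kept member are named too, each gene represented by its probe with the highest mean.

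Replicate numbers are shared by all groups, but not every pair of arrays with the same number deviated together, with correlations from -0.40 to 0.43, so they were not taken as pairs. Alternatives were median centring, values as deposited, no level filter, no trend, a fit on all arrays, a replicate block, at least 2 values per group within lines, and leaving out each line or replicate number. An earlier, different form of the NF-kB motif had no match in either promoter window. Added after seeing the data were no filter at all and, for differences between lines, at least 2 values per group.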

Additional observations from a re-analysis of the deposited data

Results flagged for a closer look

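In several comparisons 1 line stood apart from the other 5 by Dixon's rule for the gap to its nearest neighbour, which chance meets in about 1 of 20 groups. The rule was applied to all 3 kept member probes in every comparison across lines, many of which share arrays. Chance alone would therefore give some of these results. For GADD45A at 1 h after carbon ions this was 92-1, with a change of 1.17 and the nearest line at 0.57. For GADD45B probe 109049 at 1 h after carbon ions it was HMV-I, at -0.038 with the nearest line at 0.37. That gap was 0.62508 of the range, only just past the rule's limit. For the carbon-ion minus X-ray change of this probe at 3 h it was again HMV-I, at 0.40 with the nearest line at -0.15. For its 3 h minus 1 h difference after X-rays it was HMV-II, the dimmest line for this probe, at 0.094 with the nearest at -0.46. For the unirradiated carbon-ion minus X-ray difference of GADD45A it was HMV-I, at -1.99 with the nearest at -0.19.

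Other results are listed because an effect differed between times or lines. The 3 h minus 1 h difference of GADD45B probe 109049 was -0.50 on the log2 scale after X-rays and -0.46 over both beams. The GADD45A change differed between lines with F = 14.6 at 1 h and 79.2 at 3 h after carbon ions, and 16.0 and 69.4 after X-rays.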

How the results depend on the processing

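Over the alternatives, 514 recomputed values kept their direction and side of the threshold, or for counts stayed within 1.5 times, while 26 turned direction, 20 lost a call, 20 gained one and 7 counts moved further. Median centring turned GADD45B probe 109049 at 3 h after carbon ions to 0.082 and its unirradiated difference to -0.0017, and probe 477093 to 0.037 for the beam difference at 3 h and 0.022 for the time difference after X-rays, and left 0 calls of probe 109049 lower within lines. Values as deposited gave 0.0016 and -0.019 for the same pair of probe 109049 values, 0.016 for the beam difference of probe 477093 at 3 h, and a call for probe 109049 at 3 h minus 1 h after carbon ions (-0.46; limma adjusted p = 0.0475). With no filter, GADD45A at 1 h after X-rays (0.47; 0.0569) and the X-ray time difference of probe 109049 (-0.50; 0.0621) lost their calls.

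The fit on all arrays, which takes the spread between arrays and not between lines as error, added calls for probe 477093 at 1 h after carbon ions (-0.14; 0.0429) and between unirradiated sets (-0.16; 0.0115), for probe 109049 at 3 h after X-rays (0.13; 0.00959) and over time after carbon ions (-0.43), and for GADD45A over time (0.33 after carbon ions, 0.30 after X-rays, 0.31 over both) and between unirradiated sets (-0.20). Calls were common in that fit, so nothing is read from the added ones. Of 32060 kept probes it called 8597 at 1 h after carbon ions, 10029 at 3 h after X-rays and 17716 between unirradiated sets. Over time it called 5296 after carbon ions, 5251 after X-rays and 8725 over both beams. With a replicate block in that fit the values were -0.15, -0.16, 0.13, -0.42, 0.33, 0.30, 0.31 and -0.20, and the beam difference of probe 109049 at 1 h also passed (-0.21; 0.0248). For that beam difference 410 of 32060 kept probes passed with the block. Since the replicate numbers were not taken as pairs, this block is given only here. Within lines the fit with the block gave 18 higher calls of GADD45A, 9 of probe 109049 and 1 lower call of probe 477093 (Colo679 at 3 h after carbon ions; adjusted p = 0.0299), and the F of GADD45A between lines at 3 h after carbon ions was 82.2 with it. As a hint from the data, 14 of 18 arrays correlated best with their own number in Colo679 and MeWo, 13 in HMV-II, 9 in C32TG, 6 in HMV-I and 3 in 92-1.

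Leaving out 1 line gave GADD45A changes of 0.66 to 1.05 at 3 h after carbon ions, 0.38 to 0.57 at 1 h and 0.56 to 0.92 at 3 h after X-rays, and -0.33 to 0.16 between unirradiated sets. For probe 109049 it gave -0.086 to 0.067 at 3 h after carbon ions, -0.057 to 0.19 between unirradiated sets, and time differences of -0.55 to -0.37 after carbon ions and -0.62 to -0.45 after X-rays. For probe 477093 it gave -0.047 to 0.022 for the beam difference at 3 h, and time differences of -0.0027 to 0.087 after carbon ions and -0.025 to 0.036 over both beams. Leaving out 1 replicate number gave 0.46 to 0.48 for GADD45A at 1 h after X-rays. For probe 109049 it gave -0.023 to 0.025 at 3 h after carbon ions, time differences of -0.48 to -0.39 after carbon ions and -0.55 to -0.48 after X-rays, and 5 to 7 higher and 0 lower calls within lines. For probe 477093 it gave -0.074 to 0.054 for the beam difference at 3 h, time differences of -0.083 to 0.013 after X-rays and -0.021 to 0.027 over both beams, and 0 to 1 lower calls. Causes were not tested. GADD45B probe 477093 and GADD45G were dim, and whether this hid a change was not tested. The beams' control sets differed most in HMV-I for GADD45A and in MeWo for probe 109049. They also differed in other lines, as in C32TG by 0.37 for GADD45A and 0.46 for probe 109049.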
